A study of Schmidtea mediterranea with 2 samples.

Results

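SMED30016196 is a planarian gene that the study placed among its differentially expressed marker genes of both intestine and stem cells, and it was the 1 gene to appear under both headings. It was chosen by that double listing, which rests on comparisons of marker-positive with marker-negative beads of these same data, so its level on such beads is given here as a description. The study set its differentially expressed genes beside cell type markers already known from a published single-cell atlas. Expression values of that atlas were not used here. The gene is 1 of 21947 genes that held at least 1 UMI (a unique molecular identifier, which stands for 1 captured RNA molecule) on the beads examined. Its schMedS3 counterpart in the study's list is h1SMcG0013627. Neither the deposited tables nor the list gives it a name or a function, so none is given here.

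The measurements come from 1 Slide-seqV2 library of Schmidtea mediterranea worm fragments, embedded, cut with a cryostat and placed on 1 puck, a surface covered with barcoded beads of known position that capture polyadenylated RNA from the tissue above them. The library was sequenced in 2 runs (labelled planarian run1 and planarian run2), and the counts come in 4 tables: the first run and both runs together, each as original and as Syrah-processed data, Syrah being a tool that corrects errors in the bead barcodes. The labels give no strain, age, treatment or control group. There are no replicates, so no p-value is given and the 95% intervals cover counting error only.

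Planarians regenerate their bodies from neoblasts, the only dividing cells of the adult worm outside the germ line, which lie between the organs. These cells are usually recognised by piwi-1 (SMED30007406), which encodes a PIWI-family protein, a class that binds small RNAs and keeps transposons in check. The intestine is a branched, blind-ended organ that digests food and stores it, and here it was marked by mat2a (SMED30021445), which encodes methionine adenosyltransferase, the enzyme that makes the methyl donor S-adenosylmethionine. A bead can take up RNA from parts of several cells, and fewer cells of a type cannot be told apart from less RNA per cell.

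SMED30016196 was the 3rd most abundant transcript on the puck. In the Syrah-processed table of both runs, 8789 beads held at least 50 UMIs, with a median of 196 and 3166333 UMIs in all. Of these, 66433 UMIs came from the gene, which is 2.10% or 20981 CPM (counts per 1000000 UMIs; 95% interval 20822 to 21141). Only SMED30032887, at 152520 CPM, and SMED30031105, at 44395 CPM, were higher. The gene held more UMIs than all other members of the intestine list together, which summed to 54167 UMIs over 14 genes, and made up 55.1% of that list. It made up 25.02% of the stem cell list, whose other 21 genes summed to 199042 UMIs. The most abundant other intestine gene, SMED30018252, stood at 7771 CPM, and the most abundant other stem cell gene, SMED30029763, at 15701 CPM. These are shares of UMIs with no correction for transcript length.

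The 4 tables gave nearly the same level. The share was 20681 CPM in the original table of both runs, 21370 in the Syrah-processed table of the first run and 21123 in the original table of the first run, and the gene ranked 3rd in each. Syrah processing raised its UMIs on beads that passed 1.30 times in the data of both runs, beside 1.28 times for all UMIs. Adding the second run raised them 1.06 times, beside 1.08 times for all UMIs, so that the share after both runs was 0.982 times that of the first run. No interval is given for these ratios, because the tables count the same reads. Syrah also brought 2635 beads over 50 UMIs that had been under it in the original table. On those beads the share was 21230 CPM, and it was 20885 CPM on the 6154 beads that passed in both.

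The gene was found on nearly every bead. At least 1 UMI was present on 7882 of the 8789 beads, which is 89.7% (89.0 to 90.3, exact binomial), with a median of 4 and at most 122 UMIs per bead. The number without any was 907, whereas 685 would be expected if every bead held the gene at the same share and differed only in depth. Single UMIs were found on 1107 beads and 2 to 4 on 2520 beads, and 59 beads held 50 or more. Among the 4345 beads with at least 200 UMIs, where a single bead's share can be read, the share ran from 0.708% at the 5th percentile through a median of 1.99% to 4.31% at the 95th, and reached 10.4%. Beads with none were thus more frequent than even mixing would give, and those with 2 to 4 UMIs or with 50 or more were fewer, with 2786 and 77.9 expected. More frequent too were beads with 10 to 19 and with 20 to 49 UMIs, at 1478 and 762, where 1425 and 708 were expected.

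**Figure D1:**
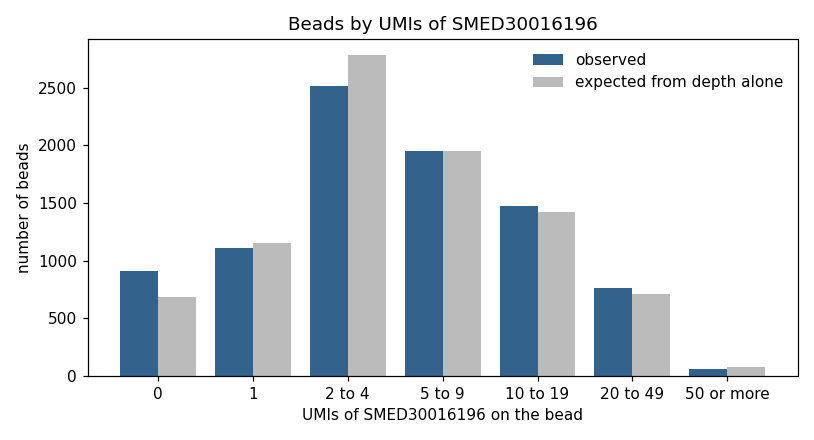
Number of beads (vertical axis) by the UMIs of SMED30016196 they hold (horizontal axis), over the 8789 beads with at least 50 UMIs. Dark bars are the observed numbers and grey bars those expected if all beads had the same share and differed in depth alone; 907 beads held none where 685 were expected.

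The level fell on the deepest beads. In order of depth the share was 21951 CPM on beads with 50 to under 100 UMIs, 22921 from 100 to under 200, 22802 from 200 to under 500, 21355 from 500 to under 1000, and 18568 (18306 to 18834) on the 642 beads with 1000 or more. Barcodes just below the minimum, with 10 to 49 UMIs, gave 20863 CPM. The ratio of the deepest beads to those with 200 to under 500 UMIs was 0.814 for the gene and 1.01 for the median gene of 650 with at least 500 UMIs. Of those 650 genes, 94 had a lower ratio, among them 3 of the 25 most abundant genes. SMED30032887, the most abundant gene, had a ratio of 0.819.

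On beads called off tissue the gene was lower but far from absent. Beads were taken to lie over tissue where at least 25% of the 50 nearest barcodes held 10 or more UMIs. Over tissue the share was 21157 CPM (20990 to 21326) on 7334 beads with a median of 220 UMIs, and off tissue it was 19154 (18643 to 19675) on 1455 beads with a median of 102. The gene was present on 91.7% of the former and 79.3% of the latter, and when each bead was thinned to 50 UMIs these values became 64.3% and 57.4%. With fewer filled barcodes around a bead the share declined further, from 21191 CPM where 35% or more were filled to 16112 (14885 to 17412) where fewer than 15% were. Off tissue the level was thus 0.905 times that over tissue (0.880 to 0.931). The split rests on filled barcodes alone, so it cannot tell beads over sparse tissue from beads beyond it. Whether the RNA on those beads came from cells directly above them was not tested.

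The next question was whether the gene was concentrated on the beads of either cell type. Beads were divided into 968 with piwi-1 and no mat2a, 632 with mat2a and no piwi-1, 169 with both and 7020 with neither. The share of SMED30016196 was 21605 CPM (21255 to 21958) on piwi-1 beads, 21162 (20720 to 21610) on mat2a beads, 19157 (18576 to 19751) on beads with both and 20926 (20719 to 21135) on beads with neither. Over beads with neither, the ratios were 1.03 (1.01 to 1.05) for piwi-1, 1.01 (0.988 to 1.04) for mat2a and 0.915 (0.886 to 0.945) for both. The gene was present on 96.9%, 97.8%, 99.4% and 87.7% of these beads in turn, or 66.8%, 65.8%, 62.9% and 62.5% after thinning each bead to 50 UMIs. The mat2a interval includes 1. So does the piwi-1 interval over tissue alone (0.9993 to 1.04) and in the original table of both runs (0.993 to 1.04). None of the 3 ratios came near 1.5.

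As background, a ratio of at least 1.5 was found for 21.9% of the 5932 genes with at least 10 UMIs on piwi-1 beads, for 19.1% of 3754 genes on mat2a beads and for 19.2% of 2354 genes on beads with both. The median gene had ratios of 1.11, 1.11 and 1.12. SMED30016196 lay below the median each time, with 58.7% of genes higher on piwi-1 beads, 62.4% on mat2a beads and 78.8% on beads with both. Genes entered by their UMIs on the marker-positive beads, so scarce genes that are high there pass more easily. That can raise the medians and percentages, so a place below the median is no result about SMED30016196. Among the 25 most abundant genes it was 1 of 12 whose ratios on piwi-1 beads and on mat2a beads both lay within 0.1 of 1.

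Other members of the lists stood further from 1, although they were also listed from these data and are not independent evidence. All 13 other intestine genes besides mat2a had a higher ratio on mat2a beads than SMED30016196. Their median was 1.58, and 9 of the 13 reached 1.5. The 3 most abundant, SMED30018252, SMED30035609 and SMED30020296, had ratios of 1.40, 1.43 and 1.76, and the extremes were SMED30001635 at 1.19 and SMED30020778 at 2.30. On piwi-1 beads the same 13 genes were all lower than SMED30016196, with ratios from 0.562 to 0.915. In pooled shares the gene thus lacked the height on mat2a beads and the depletion on piwi-1 beads of the other intestine genes. The study's listing rests on another measure, differential expression of all marker-positive against all marker-negative beads, so these ratios do not test it. With each bead weighted equally, the ratios of SMED30016196 were 1.10 for piwi-1 and 1.03 for mat2a.

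The gene stood closer to the stem cell list. Of 20 other stem cell genes besides piwi-1, 18 had a higher ratio on piwi-1 beads and 2 a lower one. Their median was 1.18, and 5 of the 20 reached 1.5. SMED30029763 had a ratio of 1.96 and SMED30001362 the highest, 2.03, whereas the abundant members SMED30013735 and SMED30035193 had 1.16 and 1.03 and SMED30029899 had the lowest, 0.909. On mat2a beads, 9 of these 20 genes had a higher ratio than SMED30016196.

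Marker-positive beads were deeper than the rest, and depth moved with the result. The median was 476.5 UMIs on piwi-1 beads, 536 on mat2a beads, 1063 on beads with both and 153 on beads with neither. Compared within depth bins, the piwi-1 ratio was 1.18, 1.03, 1.23, 1.17 and 1.04 from the shallowest to the deepest bin, and above 1 in all 5. At 100 to under 200 UMIs its interval included 1 (0.934 to 1.14). The clearest difference was at 200 to under 500 UMIs, where the share was 27035 CPM (26020 to 28080) on 300 piwi-1 beads and 21993 (21617 to 22373) on 1874 beads with neither. The mat2a ratio was 1.13, 1.09, 1.05, 1.09 and 1.08, with intervals that included 1 in the bins below 500 UMIs. On beads with both it was 1.21 at 200 to under 500 UMIs, 1.16 at 500 to under 1000 and 0.989 at 1000 or more, and the 2 shallowest bins held 1 and 5 such beads.

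Combined over depth bins (Mantel-Haenszel), the ratios were 1.13 (1.11 to 1.15) for piwi-1, 1.08 (1.05 to 1.11) for mat2a and 1.04 (1.01 to 1.08) for both. No median over all genes is given for depth bins alone. On beads with both markers the combined value was thus above 1, where the pooled value was below it. At 1000 or more UMIs, which held 91 of the 169 such beads, the ratio was 0.989 (0.946 to 1.03). Further division by place, into the patches of tissue described below, gave 1.11 (1.09 to 1.13), 1.03 (1.01 to 1.06) and 1.02 (0.988 to 1.06), beside medians over all genes of 1.10, 1.09 and 1.10. On the first of these SMED30016196 lay near the middle, with 48.7% of genes higher. For mat2a 56.7% were higher and for both 59.6%. The genes compared had passed the same filter on marker-positive beads, so these medians and percentages carry the same limit. By place alone, without depth, the ratios were 0.9995, 0.950 and 0.875.

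**Figure D2:**
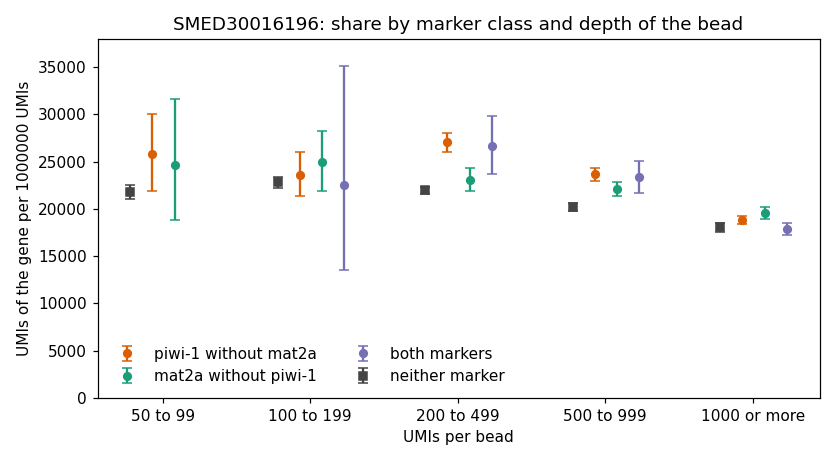
UMIs of SMED30016196 per 1000000 (vertical axis, from 0) on beads with piwi-1 only, mat2a only, both markers or neither, by UMIs per bead (horizontal axis); points are pooled shares and bars exact Poisson 95% intervals, and the class of 1 bead is left out. All classes are lowest at 1000 or more UMIs, and piwi-1 beads at 200 to under 500 UMIs, at 27035 CPM, stand above the 21993 of beads with neither.

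From bead to bead the gene varied little. After counting noise was subtracted, its level had an SD of 33.6% of its mean over beads, and 629 of the 650 genes with at least 500 UMIs varied more, with a median of 89.8%. Compared with abundant genes it was not exceptional, since 11 of the 25 most abundant varied more. In tiles with sides of 200 coordinate units (the unit is not stated) the SD was 20.9%, which 491 of the 650 genes exceeded, and the median gene had 33.1%. The 234 tiles with at least 2000 UMIs, which held 96.7% of UMIs, ranged from 0.654% to 3.68% with a median of 1.97%, and their 5th and 95th percentiles were 1.10% and 2.95%. No tile lacked the gene.

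**Figure D3:**
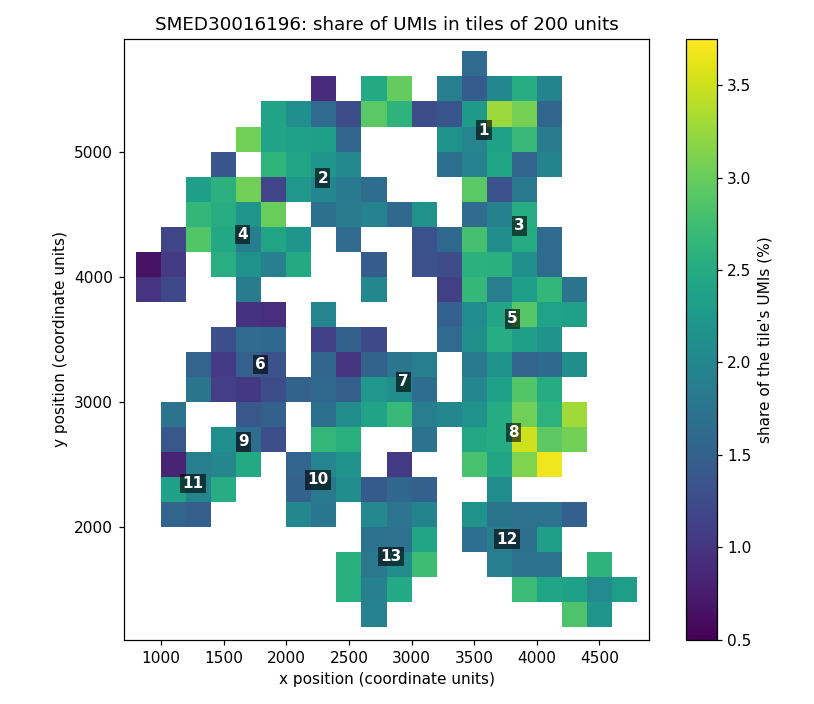
Share of all UMIs taken by SMED30016196 in each of 234 tiles of 200 by 200 coordinate units with at least 2000 UMIs, drawn at its x and y position, with the colour scale in percent; numbers mark the centres of 13 patches of tissue. Shares run from 0.654% to 3.68%, with low tiles around patch 6 and high tiles around patch 8.

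Beads far apart still shared part of the level. For pairs of beads, the covariance of the relative level (the product of the deviations of both beads from the count expected at their depth, over the product of those expectations) was 0.0563 at 0 to 20 units, 0.0507 at 20 to 50, 0.0379 at 50 to 100, 0.0318 at 100 to 200 and 0.0242 at 200 to 400. It fell to 0.00778 at 400 to 800 units and 0.00195 at 800 to 1600. The value at 200 to 400 units was 42.9% of that of the closest pairs. The same percentage was 4.59% for SMED30029763, 3.47% for SMED30018252, 3.80% for piwi-1 and 3.07% for mat2a. Of 572 genes with a covariance above 0 at the closest distance, 50 had a higher percentage and the median was 9.28%, and none of the other 24 most abundant genes had a higher one.

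In absolute size the short-range part was small and the long-range part ordinary. At 20 to 50 units 452 of 650 genes had a higher covariance, with a median of 0.126. At 200 to 400 units the median was 0.0204, below the 0.0242 of SMED30016196. SMED30029763 began at 0.531 and piwi-1 at 0.750 and came down to 0.0244 and 0.0285 at 200 to 400 units, close to the gene's own value. Because the gene was on nearly all beads, the share around positive beads was uninformative. Within 50 units of another bead that held it lay 8515 of the 8789 beads, and their share was 1.003 times that of all beads, beside 1.12 for piwi-1, 1.23 for mat2a and a median of 1.05.

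**Figure D4:**
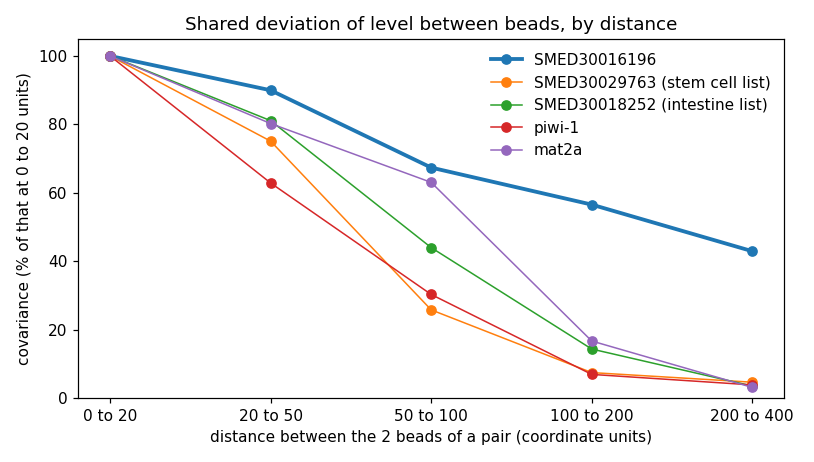
Covariance of the relative level between the beads of a pair, as a percentage of its value at 0 to 20 units (vertical axis), by the distance between them in coordinate units (horizontal axis), for SMED30016196, piwi-1, mat2a and the most abundant other gene of each list. At 200 to 400 units 42.9% was left for SMED30016196 and less than 5% for the other 4 genes.

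The share of the gene also differed between patches of tissue. Whether these differences account for the covariance at long range was not tested. Patches were defined after the data had been seen, from bead totals and positions alone, by linking beads with at least 200 UMIs that lay within 50 units of each other, and 13 patches with at least 80 such beads were found. They are numbered from the highest y position down, held 5089 of the beads, and are not labelled as separate fragments or animals. Inside patches the share was 21625 CPM, and it was 18953 on the 3700 beads in none.

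Patch 8 was the highest, at 27022 CPM (26453 to 27599) on 610 beads. Patch 6 was the lowest, at 13988 (13329 to 14671) on 329 beads, a difference of 1.93 times. Patches 1, 5, 3 and 4 followed the highest, at 24125, 23925, 23529 and 23276 CPM. In the middle lay patches 2 and 11, with 20835 and 20833, near the 20981 of all beads. Patches 13, 7, 10, 12 and 9 were lower, at 19791, 19515, 18365, 18179 and 18020. Intervals were wholly above the overall share in 5 patches and wholly below it in 6. Of the 12 neighbouring pairs in this order, the ratio of shares had an interval above 1 in 4, namely patch 8 over 1, 4 over 2, 7 over 10 and 9 over 6, at 1.12, 1.12, 1.06 and 1.29. In the other 8 pairs the interval included 1.

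The ends of this order were also compared at like depth. Both had been picked from the same counts, so their places in the depth bins are not independent of that choice. In each of the 5 depth bins patch 8 was the highest and patch 6 the lowest of the 13 patches, and their ratio was 1.997, 2.33, 2.11, 2.19 and 1.97 from the shallowest bin to the deepest. The interval of the first place overlapped that of the next in the shallowest bin, where patch 8 had 37302 CPM (32732 to 42332) and patch 1 had 32308 (27296 to 37973), and in the deepest, where patches 8, 1 and 5 had 21634, 21589 and 21377. The interval of the last place overlapped that of patch 3 in the shallowest bin, 18676 (14739 to 23341) against 23292 (18290 to 29242), and that of patch 9 from 100 to under 200 UMIs, 15469 (13165 to 18061) against 18804 (15676 to 22373). At 200 to under 500 UMIs, patch 8 had 33048 CPM (31614 to 34531) on 185 beads and patch 6 had 15696 (14477 to 16991) on 120. The fall with depth was in turn found inside patches. In 13 of 13 the beads with 1000 or more UMIs had a lower share than those with 200 to under 500, and in patch 8 it was 21634 CPM (20872 to 22417). Median depth per patch had a rank correlation of 0.08 with the share over the 13 patches.

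In all 4 tables patch 6 was the lowest and patch 8 the highest. The former had 13852, 14273 and 14073 CPM in the original table of both runs, the Syrah-processed table of the first run and the original table of the first run, and the latter had 27060, 27570 and 27445. Beads that reached 50 UMIs only with Syrah, 1433 of which lay in patches, gave 14609 CPM in patch 6 and 27682 in patch 8. Over the 13 patches their shares had a rank correlation of 0.89 with those of all beads. They are themselves part of all beads, so that correlation is partly fixed in advance. The tables share reads of 1 library and do not replicate each other. Between patches the gene had an SD of 15.1%, beside 29.1% within the median patch, and 347 of the 650 genes varied more between patches, with a median of 16.0%. A difference of this size between patches was thus ordinary among genes on this puck, and 7 of the 25 most abundant genes exceeded it.

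**Figure D5:**
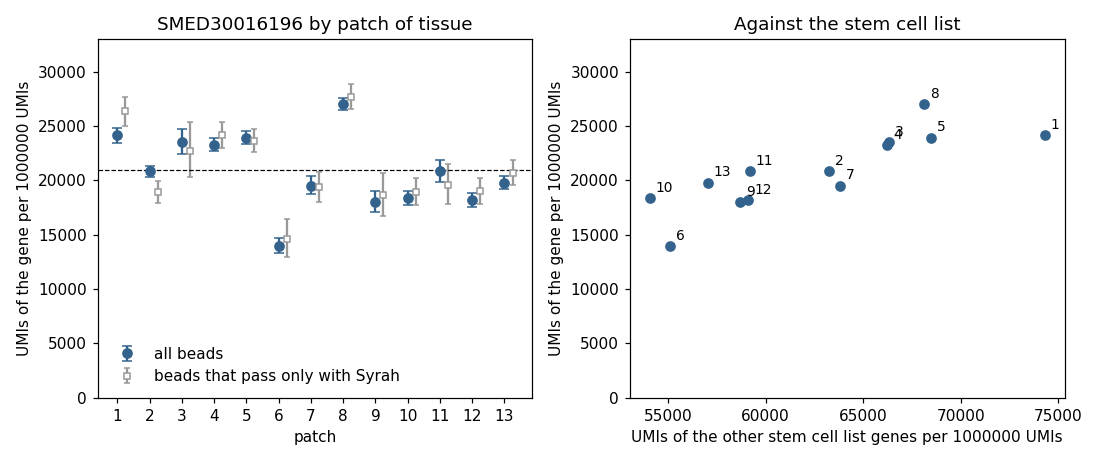
Left, UMIs of SMED30016196 per 1000000 (vertical axis, from 0) in each of 13 patches, on all beads (filled points) and on beads that reach 50 UMIs only with Syrah (open squares), with exact Poisson 95% intervals; the dashed line is the share over all beads, 20981 CPM. Right, the same share against that of the other stem cell list genes (horizontal axis, which does not start at 0), 1 numbered point per patch; patch 6 is lowest and patch 8 highest, and the rank correlation is 0.88.

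Inside patches the piwi-1 ratio had no single direction, whereas the mat2a ratio was below 1 in most patches. Beads with piwi-1 only had a higher share of the gene than beads with neither in 7 of 13 patches, with ratios from 0.816 in patch 8 to 1.15 in patch 1, and intervals lay wholly above 1 in 2 patches and wholly below it in 3. For mat2a the ratio was above 1 in 2 of 13, from 0.756 in patch 3 to 1.19 in patch 6, with intervals above 1 in 1 and below it in 3. Patch 8, the richest in the gene, was therefore also the patch in which its piwi-1 beads were lowest relative to the others. These ratios were not divided by depth.

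Across places the gene had a higher correlation with the summed stem cell list than with the summed intestine list. Over the 234 tiles, which share 1 library, differ in depth and are shares of the same totals, its rank correlation was 0.58 with the summed stem cell genes and 0.16 with the summed intestine genes, while the correlation between both lists was −0.02. The intestine value depended on the size of the tiles, at 0.10 with sides of 100 units and 0.28 with sides of 400, where the stem cell values were 0.41 and 0.63. Leaving out SMED30029763 lowered the former to 0.42. With piwi-1 and with mat2a alone the correlation of SMED30016196 was 0.23 each, and with the UMIs of the tile 0.32. Taken singly, 19 of 20 stem cell genes had a correlation above 0, with a median of 0.14, and 11 of 13 intestine genes, with a median of 0.18. As background, 463 of 649 genes had a correlation above 0, and their median was 0.08. The lists differ in total UMIs, and a sum over more UMIs is measured with less noise.

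Over the 13 patches the rank correlation was 0.88 with the stem cell list (0.70 without SMED30029763), 0.78 with mat2a, 0.53 with piwi-1, 0.39 with the intestine list and 0.29 with the most abundant gene. The median over 649 single genes was 0.13, and the lists sum many more UMIs than a single gene. SMED30029763 alone gave 0.84. The richest patches in stem cell list RNA, 1, 5 and 8, had 74300, 68473 and 68095 CPM of that list, and patches 10 and 6 were the poorest, with 54046 and 55082. Patches 1, 3, 5 and 4 followed patch 8 in SMED30016196 and were also 1st, 4th, 2nd and 5th in stem cell list RNA.

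The gene with the pattern most like it over tiles was SMED30019903, with a rank correlation of 0.52 over 234 tiles among genes with at least 500 UMIs. SMED30029763 was next, at 0.51. The least like were SMED30031105 at −0.48 and SMED30014438 at −0.34, both among the 25 most abundant genes. SMED30031105 was also among the most even genes, with an SD over tiles of 7.69%. All are shares of the same total, so that a gene that takes up more of a tile leaves less for the rest.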

How the data were processed

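The authors counted UMIs for each gene on each bead barcode with the WARP pipeline for Slide-seqV2 (version 3.1.2), from original reads and after barcode correction with Syrah. The UMI counts were deposited as whole numbers without normalization in 4 tables of 2461559 to 3364828 UMIs. Planarian reads were aligned to schMedS3 per the methods, while the tables name genes by SMED30 identifiers. A further deposited table gives an x and y position per barcode in an unstated unit. Columns of counts tied to no sample numbered 0.

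Python 3.11.15 was used with numpy 2.4.6 and scipy 1.17.1, and with scikit-learn for patches. Beads with at least 50 UMIs were kept, as in the methods. Shares are pooled UMIs per 1000000 (CPM) with exact Poisson intervals, ratios have exact conditional Poisson intervals, shares of beads exact binomial (Clopper-Pearson) intervals at 95%. A ratio was called at 1.5 with at least 10 UMIs on the positive class. Genes with at least 500 UMIs served as background for spread. With 1 library no test was run. The gene, the lists, the marker classes and the named genes were chosen with earlier results of these data known. Besides SMED30016196 and both markers, the rule named the 3 most abundant other members of each list, those with the highest and lowest ratio, and the 2 genes most and least alike over tiles; SMED30032887 was named after its values were seen, because it is the most abundant gene. Ratios, variance and covariance were tested on simulated counts. Alternatives covered bead depth, tissue, tables, weighting, marker threshold, totals, radius and tile side. Those within depth bins and patches, and without the most abundant gene, were chosen after seeing the data. Clustering of beads was not used here.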

Additional observations from a re-analysis of the deposited data

Results flagged for a closer look

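Barcodes with fewer than 50 UMIs were left out of the marker classes, patches and tiles as reported, and those with 10 or more entered the marker classes only when the minimum was lowered to 10. They held SMED30016196 too. On 24729 such barcodes with a median of 3 UMIs, 3969 UMIs of the gene were counted, which is 19996 CPM (19378 to 20627), and 2991 of them (12.1%) had at least 1. The puck has no control sample to set this against. Beads called off tissue that passed the minimum had 19154 CPM and those over tissue 21157.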

How the results depend on the processing

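With 1 library, intervals cover counting error only, and a share or bead ratio counts as moved where it lies outside the 95% interval printed in the report. Tile correlations and the ratio between patches have no interval and count as moved beyond a factor of 1.5. The share of 20981 CPM moved to 21157 over tissue, 20681 in the original table of both runs, 21370 in the Syrah-processed table of the first run, 22155 with beads weighted equally, 21330 without the 1% deepest beads and 24757 with the most abundant gene left out of the totals. The piwi-1 ratio of 1.03 moved to 1.01 in the original table of the first run, 1.10 with beads weighted equally, 1.07 without the deepest beads, 1.13 within depth bins and 1.11 within depth bins and patches, and lay at 0.9995 (0.980 to 1.02) within patches. Its interval also included 1 over tissue, in both original tables and with the most abundant gene left out. The mat2a ratio of 1.01 moved to 1.08 within depth bins and turned to 0.986 with at least 2 UMIs of the marker, 0.995 with the most abundant gene left out and 0.950 within patches. The ratio for both markers, 0.915, moved to 0.833 and 0.857 in the original tables of both runs and of the first run, 0.968 with equal weights, 0.966 without the deepest beads and 0.875 within patches, and turned to 1.04 within depth bins and 1.02 within depth bins and patches. Around positive beads the ratio moved from 1.003 to 1.012 within 20 units. The tile correlation with the intestine list, 0.16, moved to 0.10 with tiles of 100 units and 0.28 with 400. The stem cell list correlation stayed between 0.41 and 0.63, and the ratio of the highest to the lowest patch between 1.93 and 1.99. Leaving out each patch gave shares of 20307 to 21259 and ratios of 1.02 to 1.06, 0.995 to 1.02 and 0.906 to 0.942. The cause was not tested beyond what those settings change. No paired analysis was possible because the result comes from no test and the 2 runs are 1 library. Rare markers were shallow, with 1805 UMIs of piwi-1 and 1032 of mat2a, so beads without either cannot be taken as free of those cells.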
